A study of Mus musculus with 24 samples.

Results

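Olfactory receptor genes were read at low levels in the hippocampus of Aged mice, and 38 of the 1104 rows that carry an olfactory receptor symbol (Olfr and a number, pseudogene rows left out) held 100 or more raw counts over the 24 libraries. These 38 genes, chosen on those counts, are described here. They took 16988 of the 20991 counts on all olfactory receptor rows (80.9%), while 501 rows had a count of 0 in every library. At the limit, Olfr78 (111 counts), Olfr1347 (103) and Olfr544 (100) lay just inside, and Olfr1511 (91), Olfr1393 (85) and Olfr564 (83) just outside. Because the counts chose the genes, their levels are given as a description.

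RNA-Seq was made from individual hippocampi of male mice on a C57-Bl/6J background, 21 to 23 months of age, in 4 groups of 6 mice, 1 library from each. WT mice in standard housing are called WTSH, and WT mice moved to an enriched environment at 18 months of age WTEE. MSK1 KD mice in standard housing are called KDSH, and enriched MSK1 KD mice KDEE. MSK1 KD mice carry a D194A point mutation in the endogenous MSK1 gene (Rps6ka5) that leaves the kinase without activity. They were bred as a homozygous line beside a WT line, so that genotype and line cannot be told apart. The study used 21 of the 24 libraries (4 WTSH, 6 WTEE, 5 KDSH, 6 KDEE) and dropped sample 6 of KDSH and samples 4 and 7 of WTSH. All 3 correlated poorly with their groups, and ribosomal RNA was high in samples 4 and 7 above all. Rps6ka5 was read in all 21 libraries at 13.6 to 25.5 CPM (counts scaled to 1000000 counts on genes), and since a point mutation need not change the transcript level, this does not check the genotype labels.

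Olfactory receptors are G protein-coupled receptors encoded by the largest gene family of the mouse genome, most of it in clusters. In the nose each olfactory sensory neuron expresses 1 allele of 1 receptor gene, and the receptor signals through the G protein encoded by Gnal, the adenylyl cyclase Adcy3 and a cyclic nucleotide-gated channel with the subunits Cnga2, Cnga4 and Cngb1. Receptor transcripts have also been described outside the nose, among them Olfr78 and Olfr558, a pair of receptors known from smooth muscle and other peripheral tissues, and Olfr544, known as a receptor for azelaic acid.

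The 21 libraries held between 27410239 and 71907130 counts on genes, so that 3 counts, taken as the floor of detection for counting error only, correspond to 0.0417 to 0.109 CPM. Samples 4 and 7 were shallower, at 15800187 and 23318036 counts, and their floors were 0.19 and 0.129 CPM. The median level of 20 of the 38 genes lay under the floor of sample 4, so low values there are not informative. The 5 hippocampal neuron markers (Prox1, Neurod6, Wfs1, C1ql2, Fibcd1) summed to between 557.3 and 793.5 CPM. The 7 markers of olfactory sensory neurons summed to between 10.5 and 19.1 CPM. The lowest were Omp, the marker of mature sensory neurons, at 0.222 to 0.699 CPM and Cnga2 at 0.15 to 0.463 CPM. Rtp1 was at 0.365 to 3.22 CPM, Cnga4 at 0.81 to 1.6 and Stoml3 at 1.098 to 3.376 CPM. Most of the sum came from Gng13 at 2.885 to 10.97 CPM and Ano2 at 2.464 to 8.923 CPM. None of those 7 markers was at or below 3 counts in all libraries. The 3 olfactory bulb markers (Tbx21, Cdhr1, Eomes) summed to 5.84 to 12.8 CPM, the 4 vascular smooth muscle markers to 7.8 to 18.7 CPM, the 3 ependymal markers to 16.8 to 54.9 CPM and the 3 red blood cell markers to 30.7 to 313.9 CPM. In RNA from a whole tissue, fewer cells of a type and less RNA per cell cannot be told apart. Nothing in the labels pairs the mice, and p values measure the spread between mice of a group. In the study whole cages went into enrichment, and enriched cages held more mice than standard ones. The labels do not give the cage of a mouse. The p values treat mice as independent, and effects of housing and of cage cannot be told apart.

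The counts were far from evenly spread over the 38 genes. Olfr287 alone took 25.2% of them, and Olfr287, Olfr316 and Olfr550 together 47.1%. Olfr287 was read at 3.05, 3.58, 3.66 and 4.42 CPM in WTSH mice and at 3.45, 3.55, 3.79, 3.99 and 4.65 CPM in KDSH mice. In the enriched groups its level ran from 3.23 to 4.76 CPM with a median of 3.94 in WTEE and from 3.7 to 4.89 CPM with a median of 4.56 in KDEE mice. All 4 groups overlapped, and the coefficient of variation over the 21 libraries, 13.4%, was the lowest of the 38 genes. Olfr287 also came first per length, at a median of 1.47 CPM per kb of exon, followed by Olfr316 at 0.772, Olfr692 at 0.38 and Olfr550 at 0.285 CPM per kb. The median of the 38 genes on that scale was 0.0575 CPM per kb, and Olfr570 came last at 0.0138.

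Olfr316, second in counts, was read at 1.37, 1.98, 2.1 and 2.72 CPM in WTSH mice and at 1.48, 1.5, 2.14, 2.27 and 2.3 CPM in KDSH mice. Olfr550, next in counts, was read at 1.34, 1.41, 1.61 and 1.62 CPM in WTSH and at 1.25, 1.55, 1.57, 1.62 and 1.98 CPM in KDSH mice. The groups overlapped in both genes. Olfr287 and Olfr316 differed by more than their spread, since the lowest Olfr287 value (3.05 CPM) lay above the highest Olfr316 value (2.72 CPM), whereas the ranges of Olfr316 (1.37 to 2.72) and Olfr550 (1.07 to 1.98) overlapped. Below these, Olfr1417 had a median of 0.768 CPM, Olfr46 of 0.666, Olfr539 of 0.462 and Olfr692 of 0.428 CPM. Olfr545, Olfr31, Olfr461, Olfr920, Olfr317, Olfr1349 and Olfr55 had medians from 0.309 down to 0.212 CPM and overlapped widely, as the plot of the levels in each library shows. The remaining genes had medians down to 0.0196 CPM. Of the 38 genes, 31 were read in each of the 21 libraries and 12 were above 3 counts in each.

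**Figure D1:**
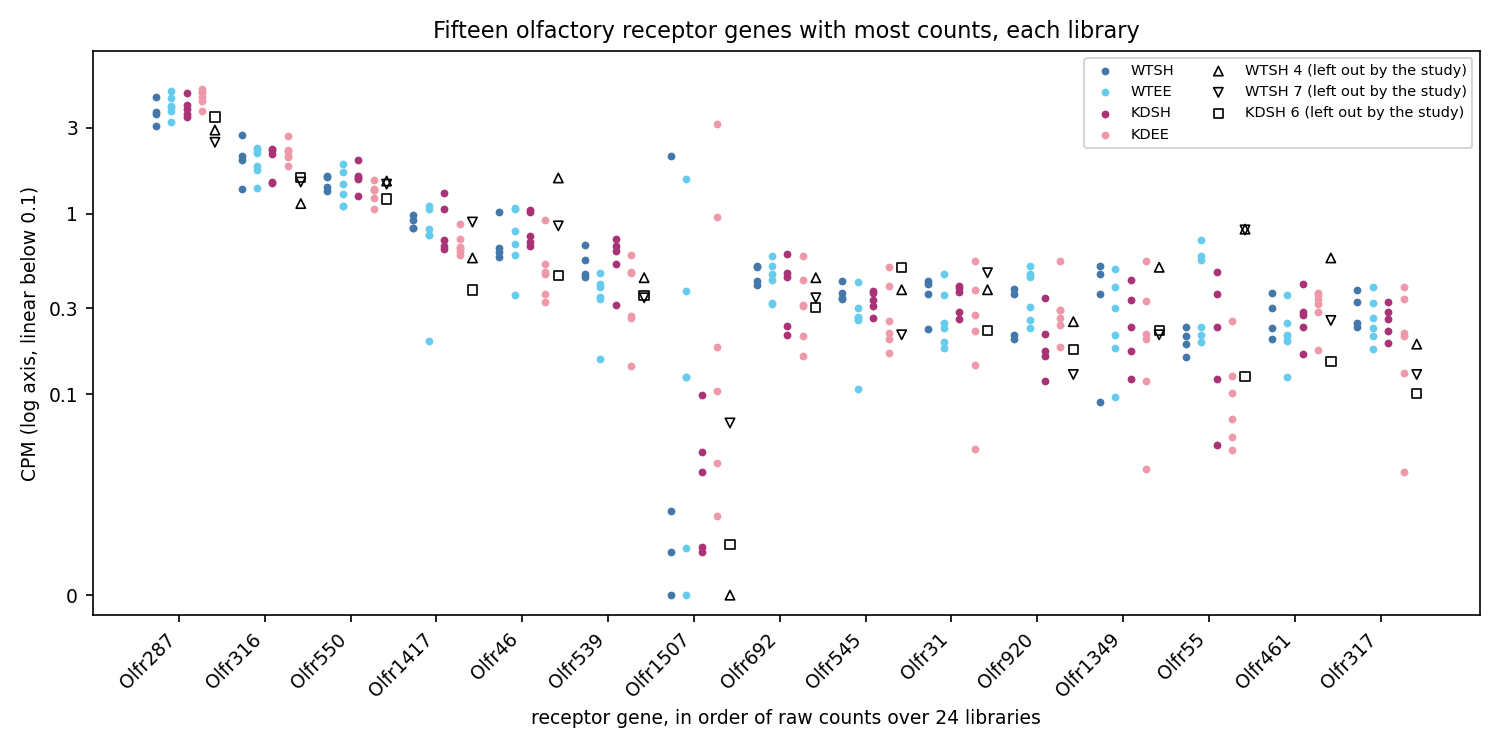
CPM of the 15 receptor genes with the most counts, by gene on the horizontal axis, in each of 24 libraries, with points coloured by group and open symbols for the 3 libraries the study left out (the vertical axis is logarithmic and linear below 0.1). Olfr287 sits between 3.05 and 4.89 CPM in the 21 libraries used, Olfr1507 spreads from 0 to 3.14 CPM, and Olfr55 is at 0.823 and 0.815 CPM in samples 4 and 7, above its other libraries.

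The spread between libraries was set beside counting error by an index of dispersion, which is 1 where counts vary as counting alone would make them. Its median over the 38 genes was 1.96, and it was under 2 for 20 of them. The index was over 5 for 4 genes, which were Olfr1507 (71.5), Olfr570 (26.6), Olfr55 (6.49) and Olfr239 (5.4). Among the other 34 genes the highest index was that of Olfr46 (4.04).

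The summed level of the set was alike in the 4 groups, with means that differed by less than the spread between mice. The 38 genes summed to 16.1 ± 0.828 CPM in WTSH (SD, n = 4), 15.9 ± 1.64 in WTEE (n = 6), 15.7 ± 0.866 in KDSH (n = 5) and 15.6 ± 2.02 CPM in KDEE mice (n = 6). The sum holds 2 genes that were uneven between the groups. Olfr1507 had means of 0.535, 0.368, 0.0556 and 0.748 CPM in WTSH, WTEE, KDSH and KDEE mice, and Olfr570 of 0.179, 0.2, 0 and 0.236 CPM. A sum without them was not taken. The left-out samples 4, 6 and 7 stood at 16.7, 11.7 and 13.9 CPM. Samples 4 and 7 thus lay within the range of the 21 libraries (12.9 to 18.8 CPM), and sample 6 lay below it.

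Most of the genes lie close to each other. In the GENCODE M21 annotation of GRCm38, all 38 symbols matched a protein-coding gene, and members less than 1 Mb apart formed 15 loci, 9 of which held 2 or more of the genes and 32 of the genes in all. The largest locus, of 9 genes at chr7:102476579-102901710, holds Olfr550 and Olfr551 (0.499 kb apart), the Olfr543, Olfr544 and Olfr545 group, Olfr558, Olfr559, Olfr78 and Olfr570. A group of 5 genes with Olfr46 and Olfr539 lies at chr7:140198499-140678580, a group of 4 at chr7:6467101-6522950 and another of 4 with Olfr692 at chr7:105311165-105369355. In all, 22 of the 38 genes (57.9%) are on chromosome 7, against 124 of the 564 other receptor genes with a count and 92 of the 501 (18.4%) at 0.

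The 38 genes also lay nearer to other expressed genes. The median distance to the nearest gene outside the family with 100 or more counts was 31.0 kb, against 148 kb for the other receptor genes with a count and 279 kb for those at 0. Within 20 kb of such a gene lay 14 of the 38 (36.8%), 9.9% of the others with a count and 2.0% of those at 0. Olfr692, at 1.86 kb from Fam160a2, was the nearest, and Olfr1033, at 501.6 kb, the farthest. These positions were not used to choose the genes, but they were not tested, since neighbouring genes are not independent, and reads that run on from an expressed neighbour were not told apart from reads of the receptor. In 5 of the 38 genes an exon overlaps an exon of another annotated gene: Olfr287 (with Gm44579), Olfr31 (with Gm48860), Olfr539, Olfr558 (with Gm45688) and Olfr78 (with Olfr560). The counting ignored strand and dropped reads that fell on more than 1 gene, so that these values are uncertain. The exons of the 38 genes spanned 1126 bases in Olfr692, the gene with 1 exon, to 11486 bases in Olfr539, with a median of 3383, and the other 37 genes had 2 or more exons.

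Near-identical copies set a further limit, because reads that align to more than 1 place were not counted. For 34 of the 38 genes another receptor matched over 80% or more of the coding sequence, at 65.0 to 98.7% identity with a median of 91.5%, and 10 genes shared an exact run of 150 bases or more with another receptor. The longest run, of 668 bases, was that of Olfr287 (chr15:98206971-98221056, minus strand) and its neighbour Olfr288 (chr15:98186013-98195542, minus strand), which are 97.1% identical. Olfr288, named here after its value was seen, had 44 counts to the 4287 of Olfr287. The 120 coding bases in which this pair differed most, 16 of 28 differences, are shown as an example of bases that tell the genes apart. The differing bases are in capitals (coding strand, 5′ to 3′, from the GENCODE M21 transcripts).
Olfr287: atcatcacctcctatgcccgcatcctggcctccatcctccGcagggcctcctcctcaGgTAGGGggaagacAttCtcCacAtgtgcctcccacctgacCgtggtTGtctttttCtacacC
Olfr288: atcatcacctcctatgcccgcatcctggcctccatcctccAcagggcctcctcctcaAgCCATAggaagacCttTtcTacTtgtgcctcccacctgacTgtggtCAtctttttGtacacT

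Samples 4 and 7, those with the most ribosomal RNA, also had the largest share of read pairs on no annotated gene, called here the no-feature share. It was 32.2% in sample 4 and 33.02% in sample 7, against 8.41 to 15.7% in the 21 libraries used and 16.4% in sample 6. Receptor genes that rise with this share were looked for by 2 measures, the Spearman rho of CPM with the share over the 21 libraries and whether both samples 4 and 7 lay above all 21. The share itself differed between groups. It was 11.5% ± 2.85 in WTSH, 11.5% ± 1.54 in WTEE, 11.4% ± 0.999 in KDSH and 9.4% ± 0.852 in KDEE mice (SD, n = 4, 6, 5 and 6). KDEE mice were lower than KDSH (exact two-sided permutation test, p = 0.00866, adjusted over 4 pairs 0.0216) and lower than WTEE mice (exact p = 0.0108, adjusted 0.0216), and WTEE did not differ from WTSH (exact p = 0.952) nor KDSH from WTSH (exact p = 0.921) at this threshold.

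Of the 38 genes, 24 (63.2%) had a rho under 0.5 and lay above all 21 libraries in neither sample 4 nor sample 7, which is the pattern of 88% of the 21599 genes with 100 or more counts. Olfr287 (rho -0.41), Olfr316 (rho -0.18) and Olfr692 (rho 0.37) were among them. Olfr287 was lower in sample 4 (2.91 CPM) and in sample 7 (2.49 CPM) than in any of the 21 libraries. The lowest rho values were those of Olfr570 (-0.60), Olfr1507 (-0.45) and Olfr287. In the other direction, 7 of the 38 genes (18.4%) had a rho of 0.5 or more, against 7.41% of all genes with 100 or more counts. The highest were Olfr239 (0.83), Olfr46 (0.72) and Olfr690 (0.60), followed by Olfr550 (0.58), Olfr5 (0.58), Olfr1417 (0.54) and Olfr1366 (0.53). In samples 4 and 7 Olfr550 (1.52 and 1.46 CPM), Olfr1417 (0.57 and 0.901 CPM), Olfr690 and Olfr1366 were nevertheless within their ranges over the 21 libraries. Olfr46 lay above its range in sample 4 (1.58 CPM) but not in sample 7 (0.858 CPM). The same held for Olfr5, at 0.3165 CPM in sample 4 and 0.1287 CPM in sample 7, with a highest value of 0.2577 CPM in the 21 libraries. These correlations rest on 21 libraries that share the housing and genotype groups, in which the share itself differed, and are a description.

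Olfr55 and Olfr239 were the 2 genes of the 38 (5.26%) that lay above all 21 libraries in both samples 4 and 7, against 3.03% of all genes with 100 or more counts. Olfr239 (2.63% of the 38) met both measures, against 1.62% of all such genes, and the rho of Olfr55, 0.497, fell just short of the limit. With Olfr55, 13 of the 38 genes (34.2%) fell between these patterns. Of all genes with 100 or more counts, 88% had a rho under 0.5 with neither sample above all 21, 1.62% met both measures and the rest fell between. Samples 4 and 7 were shallow, so high values there of genes with few counts are uncertain too, and nothing is read from the 34.2%. The mean of samples 4 and 7 was 7.5 times the median of the 21 libraries for Olfr239 and 3.87 times for Olfr55. The relation did not hold for each library with a high share. WTSH sample 2 (15.7%) and sample 6 (16.4%) had only 0.0856 and 0.152 CPM of Olfr239, and 0.235 and 0.126 CPM of Olfr55.

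**Figure D2:**
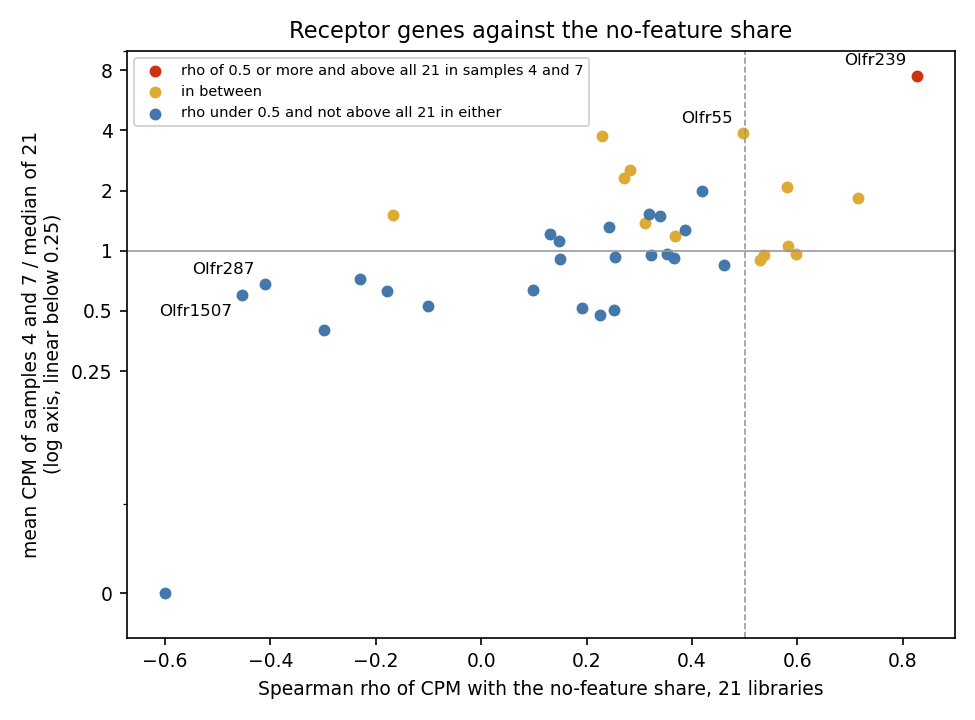
For each of the 38 receptor genes, the Spearman rho of its CPM with the no-feature share over 21 libraries (horizontal) and the ratio of its mean CPM in samples 4 and 7 to its median over the 21 (vertical, logarithmic and linear below 0.25). Olfr239, at a rho of 0.83 and a ratio of 7.5, stands at the upper right with Olfr55 (0.497 and 3.87) beside it, and Olfr287 and Olfr1507 lie at the left under a ratio of 1.

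Olfr55 and Olfr239 are neighbours on the plus strand of chromosome 17, at chr17:33168447-33180753 and chr17:33191302-33202506, and their coding sequences of 957 bases are 98.7% identical, with 12 differing bases and an exact run of 343 bases. A read pair that lies within such a run cannot be given to either gene, and the division of the reads between the pair is uncertain. Only coding sequence was compared, while the exons span 4781 bases in Olfr55 and 3773 in Olfr239. The 120 coding bases in which they differ most, 4 of the 12, are shown as an example of bases that tell the 2 genes apart. The differing bases are in capitals (bases 329 to 448 of the coding sequence).
Olfr55: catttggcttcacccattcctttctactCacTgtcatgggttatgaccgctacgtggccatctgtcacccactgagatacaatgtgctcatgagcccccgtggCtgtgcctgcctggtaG
Olfr239: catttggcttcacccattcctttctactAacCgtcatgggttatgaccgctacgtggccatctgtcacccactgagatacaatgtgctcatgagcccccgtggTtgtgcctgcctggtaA

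Olfr55 was read at 0.162, 0.19, 0.212 and 0.235 CPM in WTSH mice and at 0.0749, 0.122, 0.236, 0.358 and 0.476 CPM in KDSH mice. In WTEE mice it ran from 0.196 to 0.714 CPM with a median of 0.395, and in KDEE mice from 0.0723 to 0.255 CPM with a median of 0.0949. WTEE mice were the highest group, through samples 10, 17 and 21, but the WTEE and KDEE ranges overlapped. Olfr239 was read at 0.0608, 0.0769, 0.0856 and 0.147 CPM in WTSH mice and at 0.043, 0.122, 0.143, 0.175 and 0.5 CPM in KDSH mice. It ran from 0.0893 to 0.393 CPM in WTEE and from 0 to 0.0879 CPM in KDEE mice. The lowest WTEE value (sample 16) rested on 5 counts and the highest KDEE value (sample 20) on 4, near the floor. By this narrow gap Olfr239 was the only 1 of the 38 genes (2.63%) without overlap of WTEE and KDEE, against 0.694% of all genes with 100 or more counts. No member had groups that did not overlap in WTEE against WTSH (0.921% of all such genes), KDEE against KDSH (1.7%) or KDSH against WTSH (0.745%). Since the division of the reads between the pair is uncertain, the sum of both was also taken. It was 0.292 ± 0.0506 CPM in WTSH, 0.631 ± 0.351 in WTEE, 0.45 ± 0.312 in KDSH and 0.169 ± 0.082 CPM in KDEE mice (SD, n = 4, 6, 5 and 6). The summed values in WTEE mice were 0.286 to 1.11 CPM and in KDEE mice 0.102 to 0.328 CPM.

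**Figure D3:**
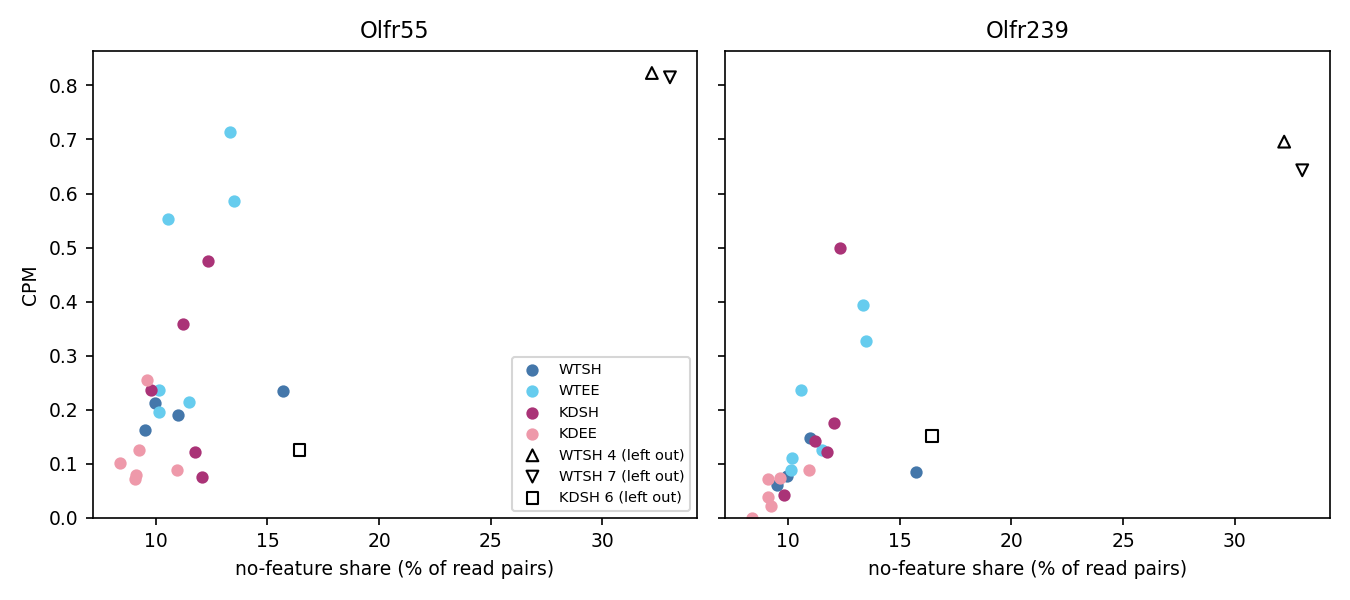
CPM of Olfr55 (left) and Olfr239 (right) in 24 libraries against the no-feature share in percent of read pairs, coloured by group, with open symbols for the left-out libraries. Samples 4 and 7 stand alone at shares of 32.2 and 33.02% and the highest CPM, while the 21 libraries lie between 8.41 and 15.7% with most KDEE mice at the low end of both axes.

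To ask whether housing or genotype changed the receptor genes, all genes were fitted together with the quasi-likelihood test of edgeR. A gene counted as called where its adjusted p was under 0.05 and its log2 fold change beyond 0.38 in either direction. Of the 38 receptor genes 29 had counts enough for the test, and 9 were not tested. None of the 29 was called in WTEE against WTSH, KDEE against KDSH, KDSH against WTSH, WTEE against KDEE or the interaction, where 0% of all 20187 genes were called too. At an unadjusted p under 0.05, 1 of the 29 (3.45%) passed in WTEE against WTSH, beside 6.55% of all genes, and 1 in KDSH against WTSH, beside 1% of all genes. In KDEE against KDSH 7 (24.1%) passed, 5 lower and 2 higher, beside 11.6% of all genes. In WTEE against KDEE 3 (10.3%) passed, all higher in WTEE, beside 4.99%, and in the interaction 3 (10.3%) passed, beside 3.26%. The 2 higher genes in KDEE against KDSH were Olfr1507 and Olfr570. Olfr570 was also the gene that passed in KDSH against WTSH, and Olfr1507 was 1 of the 3 in the interaction. Both reached the count limit only through 5 libraries, none of them KDSH, as described below. Their passes are therefore not independent of the choice of genes, and nothing is read from the shares in these comparisons. The 3 genes that passed in WTEE against KDEE included both Olfr55 and Olfr239, the near-identical neighbours. The passes of that pair may not be independent of each other, and nothing is read from that share either.

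The smallest p of the 29 was that of Olfr55 in WTEE against KDEE, with a log2 fold change of 1.84 (SE 0.44), an unadjusted p of 0.000424 and an adjusted p of 0.184 in edgeR's quasi-likelihood test. Olfr239 followed with 2.12 (SE 0.597, adjusted p = 0.262 in edgeR) and Olfr46 with 0.57 (SE 0.265, adjusted p = 0.957 in edgeR). The Wald test of DESeq2, which the study used, gave a log2 fold change of 1.86 for Olfr55 and an adjusted p of 0.0286, a call, where it called 0.438% of the 26970 genes given an adjusted p. The no-feature share differed in the same comparison, at 11.5% in WTEE and 9.4% in KDEE mice, and with the share as a covariate in edgeR the log2 fold change of Olfr55 was 1.40 (SE 0.501, adjusted p = 0.887). With that covariate Olfr239 stood at 1.24 (SE 0.609) and Olfr46 at 0.26 (SE 0.288), both with an adjusted p of 0.887 in edgeR. Over the alternatives the adjusted p of Olfr55 ran from 0.0286 with DESeq2 to 0.969 in edgeR with samples 4, 6 and 7 kept in.

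In KDEE against KDSH the genes with the smallest p were Olfr239 (log2 fold change -2.002, SE 0.636), Olfr543 (-1.08, SE 0.4) and Olfr46 (-0.70, SE 0.278), with adjusted p values of 0.35, 0.378 and 0.393 in edgeR. The median log2 fold change of the 29 genes was -0.26 there, beside a median of 0.00 over all genes tested. It ranged from -0.3 without KDEE sample 20 to -0.12 without KDEE sample 14. With the no-feature share as a covariate the median was -0.005 and 2 of the 29 genes had an unadjusted p under 0.05, and with the summed CPM of 5 choroid plexus markers as a covariate, chosen after the data were seen, the median was -0.039. With the no-feature share as a covariate Olfr239 stood at -1.16, Olfr46 at -0.42 and Olfr543 at -1.16, each with an adjusted p of 0.993 in edgeR. The median was -0.07 in WTEE against WTSH, -0.05 in KDSH against WTSH, 0.13 in WTEE against KDEE and 0.03 in the interaction. In WTEE against WTSH, Olfr55 (1.03, SE 0.454), Olfr239 (1.16, SE 0.592) and Olfr539 (-0.60, SE 0.309) had the smallest p, each with an adjusted p of 0.651 in edgeR, and the difference for Olfr55 was 0.00 with all 24 libraries, in which samples 4 and 7 count as WTSH. In the interaction they were Olfr239 (3.16, SE 0.87, adjusted p = 0.441 in edgeR), Olfr55 (2.17, SE 0.664, adjusted p = 0.576) and Olfr1507.

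**Figure D4:**
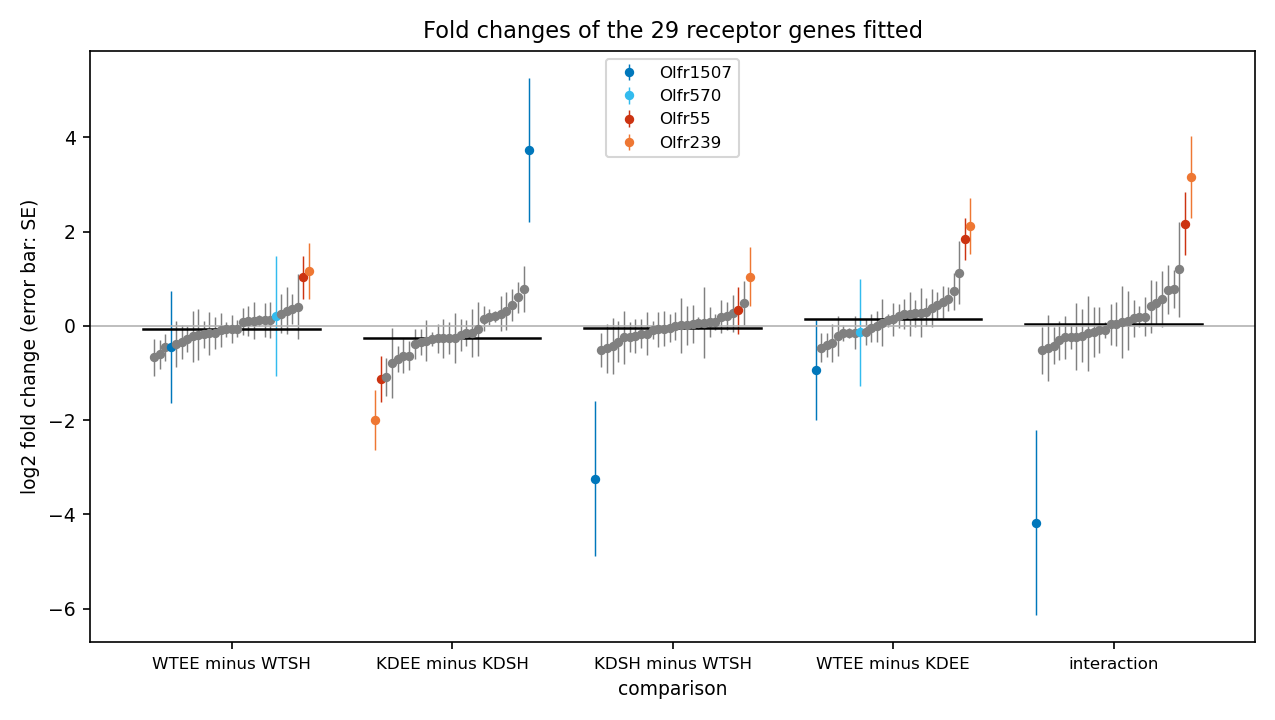
Log2 fold changes of the 29 receptor genes fitted, with approximate standard errors, in 4 comparisons of groups and in the interaction, ordered within each comparison (black line, median). Olfr570, which had no count in any KDSH mouse, is left out of the 3 comparisons that use KDSH. Olfr55 and Olfr239 stand at the top of WTEE minus KDEE, at 1.84 and 2.12, and most other genes lie near 0.

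Olfr1507 and Olfr570 followed another pattern. Olfr1507, also known as MOR28, is one of the best studied odorant receptors, and it lies at chr14:52488791-52495749 (minus strand). Olfr570 lies in the chromosome 7 cluster at chr7:102894577-102901710 (plus strand). Olfr1507 had 130 and 47 counts in KDEE samples 12 and 14, 112 and 19 in WTEE samples 13 and 10 and 108 in WTSH sample 19. In the other 19 libraries it had between 0 and 7 counts. Olfr570 had 48, 7, 46, 24 and 33 counts in the same 5 libraries and between 0 and 3 in the others. Its count was 0 in all 6 KDSH libraries, and none of the 5 libraries with many counts was a KDSH library.

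These were the same 5 libraries that had the most transcript of the choroid plexus, the secretory epithelium that lines part of the ventricles beside the hippocampus. The 5 markers Ttr, Folr1, Kl, Clic6 and Kcnj13 summed to 9436, 5815, 5209, 4435 and 2630 CPM in KDEE 12, WTEE 13, WTEE 10, WTSH 19 and KDEE 14, and to between 21.0 and 113.7 CPM in the other 19. Among all genes with 100 or more counts, 2.23% were above the other 19 libraries in each of these 5, and 2 of the 38 receptor genes (5.26%) were. Nothing is read from the 2 shares, since Olfr1507 and Olfr570, with 48 and 13 counts in the other 19 libraries, reached the limit of 100 counts only through these 5. The 5 libraries held 24.3% of all counts on genes. They held 89.7% of the counts of Olfr1507 and 92.4% of those of Olfr570, but 6.11 to 31.7% (median 20.4%) of those of the other 36 receptor genes. Most of the marker sum is Ttr. Against WTSH 19, which had 108 counts of Olfr1507, WTEE 10 with 19 counts had more Ttr (5040 and 4200 CPM), Folr1 (40.4 and 33.8 CPM) and Kcnj13 (7.59 and 5.06 CPM) but less Kl (69.1 and 129 CPM) and Clic6 (55.2 and 69.2 CPM). Whether these transcripts come from choroid plexus cells was not tested.

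**Figure D5:**
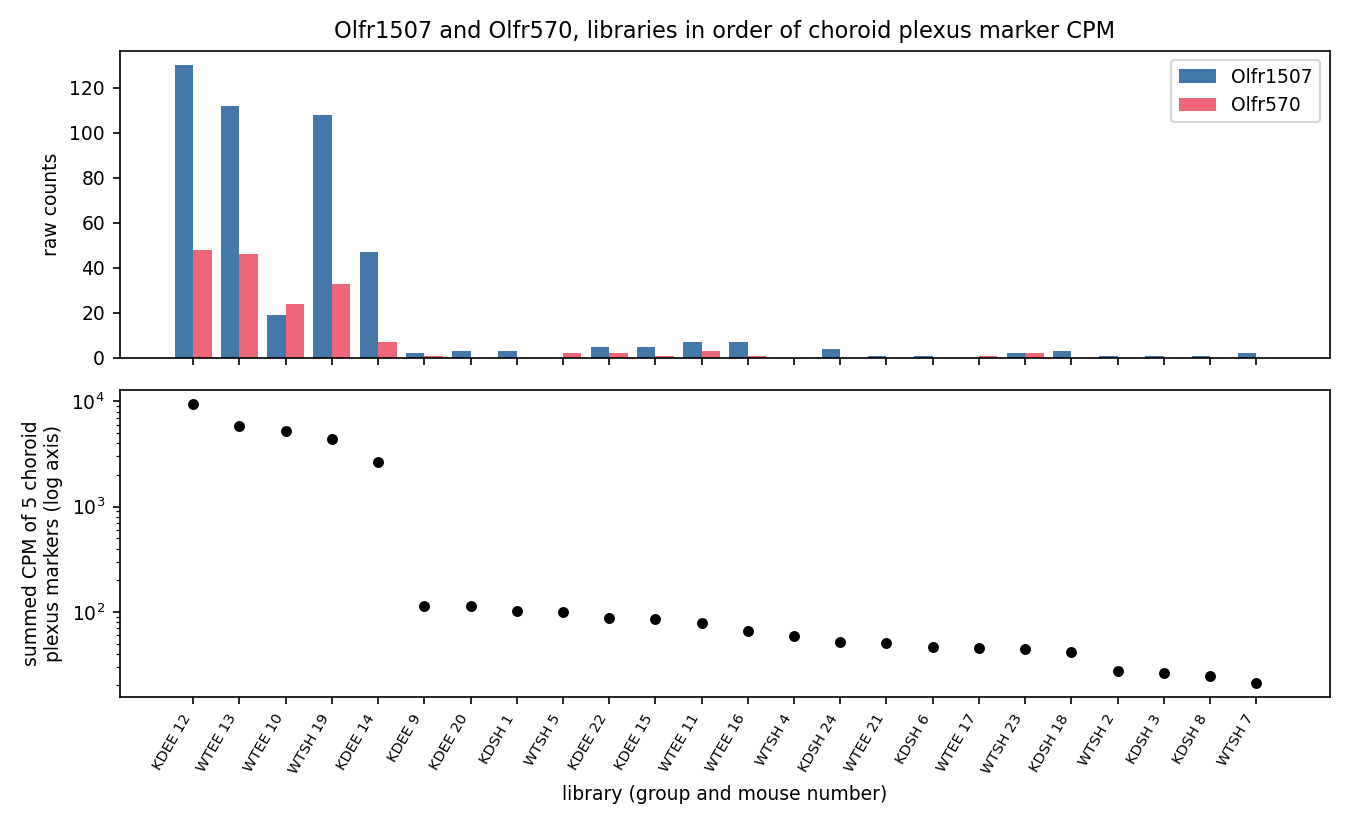
Raw counts of Olfr1507 and Olfr570 (upper panel, bars) and the summed CPM of 5 choroid plexus markers (lower panel, logarithmic axis) in 24 libraries, ordered by the marker sum. The 5 libraries at the left, with sums of 2630 CPM or more, hold 19 to 130 counts of Olfr1507 and 7 to 48 of Olfr570, and the other 19 hold at most 7 and 3.

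Among the 137 receptor rows with 10 or more counts, 6 had 80% or more of them in these 5 libraries. Besides Olfr1507 and Olfr570 these were Olfr1342 (40 of 42 counts), Olfr574 (38 of 44), Olfr575 (10 of 12) and Olfr1508 (11 of 11), named after their values were seen. Outside the 5 libraries the rows just named had 2, 6, 2 and 0 counts, so they too reached the limit of 10 counts only through these libraries. The same share over all genes was not taken, and nothing is read from the count of 6. Olfr574 and Olfr575 lie in the same chromosome 7 cluster as Olfr570, and Olfr1508 (chr14:52458829-52467495, minus strand) is a neighbour of Olfr1507. The coding sequences of Olfr1507 and Olfr1508 are 93.0% identical over 926 bases, with 65 differences and no exact run longer than 143 bases. This is shorter than the 150 bases sequenced per read, but reads were trimmed and some may be shorter. Their 120 coding bases with the most differences, 18, are shown because they separate the pair well, unlike those of Olfr55 and Olfr239, with the differing bases in capitals (bases 804 to 923).
Olfr1507: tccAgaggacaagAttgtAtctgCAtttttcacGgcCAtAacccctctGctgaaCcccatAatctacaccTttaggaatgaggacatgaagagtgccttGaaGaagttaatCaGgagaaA
Olfr1508: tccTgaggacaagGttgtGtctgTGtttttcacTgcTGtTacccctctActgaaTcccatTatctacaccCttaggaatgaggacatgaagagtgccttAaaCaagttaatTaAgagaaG

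The uneven division of the 5 libraries over the groups (1 WTSH, 2 WTEE, 0 KDSH, 2 KDEE) enters the comparisons of these genes that use KDSH or WTSH, while WTEE and KDEE, with 6 libraries each, held 2 each. In KDEE against KDSH, Olfr1507 had a log2 fold change of 3.73 (SE 1.54, adjusted p = 0.396 in edgeR), and with the marker sum as a covariate, chosen after the data were seen, it was -0.04 (SE 0.969). In KDSH against WTSH it was -3.24 (SE 1.64, adjusted p = 1 in edgeR), and it was 1.26 without WTSH sample 19. In the interaction it was -4.18 (SE 1.96, unadjusted p = 0.0452 in edgeR), and 0.31 without WTSH sample 19. For Olfr570 no fold is given against KDSH, where it was at 0, and its unadjusted p values in edgeR were 0.0258 in KDEE against KDSH and 0.0461 in KDSH against WTSH (adjusted p in edgeR = 0.398 and 1). Neither gene was called in any comparison, and neither had enough counts to be tested when the 5 libraries were left out.

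Genes that serve olfactory receptors in sensory neurons were read too, in part at far higher levels. The list held 23 genes of receptor signalling and trafficking and, among them, factors known to regulate receptor genes or neuronal identity (Lhx2, Ldb1, Emx2, Atf5, Kdm1a). All 23 were tested and 0 were called in any comparison, with an unadjusted p under 0.05 in edgeR for 1 in WTEE against WTSH, 1 in KDEE against KDSH and 0 in the others. Gnal, which also serves other brain receptors, was read at 80.6 to 138.5 CPM and Adcy3 at 23.97 to 56.5 CPM, whereas the channel subunits Cnga4 and Cngb1 were at 0.81 to 1.6 and 0.337 to 1.15 CPM. The receptor chaperones Rtp1 and Rtp2 were at 0.365 to 3.22 and 0.0988 to 0.422 CPM. In the other chemoreceptor families, 3 of 207 type 1 vomeronasal receptor rows (Vmn1r, 1.45%) and 6 of 122 type 2 rows (Vmn2r, 4.92%) held 100 or more counts, beside 3.44% of the olfactory receptor rows, and none of the 15 trace amine-associated (Taar) or 35 bitter taste (Tas2r) receptor rows did.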

How the data were processed

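Hippocampal poly(A) RNA of 24 mice was sequenced as paired-end reads after TruSeq library preparation. The authors trimmed the reads (Skewer), checked them with FastQC 0.11.3, aligned them to GRCm38 with STAR 2.5 and counted unique alignments without regard to strand with HTSeq 0.6.1p1. The deposited values are raw counts by gene symbol, not normalized. Multiply aligned reads were dropped, which lowers the counts of near-identical receptor copies. The no-feature share is the HTSeq count on no feature over all counts in the file, and these counts and those on more than 1 gene (the latter 4.14 to 6.57% in the 21 libraries) stayed out of library sizes.

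CPM is counts scaled to 1000000 counts on genes, without a pseudocount. The main test was edgeR 4.0.16's quasi-likelihood F-test (TMM, filterByExpr) in R 4.3.3, with the 4 groups and 21 libraries in 1 model and Benjamini-Hochberg adjustment over all genes tested, and the calls needed an adjusted p under 0.05 and a log2 fold change beyond 0.38 in size. The edgeR test gives no SE, so the SE printed is approximate, the size of the log2 fold change over the square root of the F value. DESeq2 1.42.0 was an alternative. Others were DESeq2-style size factors, other filters, all 24 libraries, only the groups compared, a robust fit, the no-feature share as a covariate and leaving out each library. The choroid plexus covariate, leaving out 5 libraries and the alternatives for the no-feature share were added after the data were seen. The no-feature share was compared with exact permutation tests. The test of edgeR was tested on simulated data with the WTEE against WTSH comparison changed by a log2 fold change of 1 in 200 of 19911 genes, all with a mean of 50 counts or more, and it recovered 183 with 8 false calls. Genes with a low count, as most of the receptors are, were not simulated as changed.

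The members, gene lists and tests were chosen with earlier results of these data known. Genes named are Olfr55, the 15 with most counts, the 3 with the smallest p in each comparison, the 3 highest and lowest rho values, the 3 rows on each side of the count limit and the extremes of the sequence features. Positions come from GENCODE M21, which may differ in detail from the annotation the authors used, and matched 1103 of 1104 receptor rows. Coding sequences were aligned with BLAST+ 2.17.0. Intervals and floors cover counting error only.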

Additional observations from a re-analysis of the deposited data

Results flagged for a closer look

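Among 80 pairs of a quantity and a group (18 receptor genes, the summed CPM and the no-feature share in 4 groups), 10 held a mouse farther from the rest of its group than Dixon's limit allows. Chance alone gives about 1 in 20 for normally distributed values, which low counts are not. The causes were not tested.

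In 5 of the 10 the mouse was among the 5 with the most choroid plexus marker transcript and the gene was Olfr1507 or Olfr570. Olfr1507 stood at 2.08 CPM in WTSH sample 19 (the others at 0 to 0.0421), at 1.56 CPM in WTEE sample 13 (0 to 0.375) and at 3.14 CPM in KDEE sample 12 (0.0393 to 0.958). Olfr570 stood at 0.635 CPM in WTSH sample 19 (0 to 0.0421) and at 1.16 CPM in KDEE sample 12 (0 to 0.143).

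The others were Olfr239 in KDSH sample 1 at 0.5 CPM (the others at 0.043 to 0.175), Olfr55 in KDEE sample 22 at 0.255 CPM (0.0723 to 0.126), Olfr46 in WTSH sample 23 at 1.03 CPM (0.578 to 0.648) and in KDEE sample 20 at 0.923 CPM (0.326 to 0.53), and Olfr920 in KDEE sample 14 at 0.551 CPM (0.182 to 0.295). KDEE sample 22 was the shallowest of the 21 libraries, with 27410239 counts.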

How the results depend on the processing

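No paired analysis was possible because no mouse number occurs in more than 1 group. The count of receptor genes called stayed at 0 in 48 of 49 pairs of an alternative and a comparison. It also stayed at 0 in all 105 pairs of a left-out library and a comparison. The count was 1 in WTEE against KDEE with DESeq2 (Olfr55, log2 fold change 1.86). The median log2 fold change moved by more than the spread between mice (0.163) in 3 alternatives, from -0.26 to -0.005 with the no-feature share and to -0.039 with the choroid plexus marker sum as a covariate in KDEE against KDSH, and from -0.05 to -0.25 with all 24 libraries in KDSH against WTSH. Receptor genes above all kept libraries in samples 4 and 7 were 1 in place of 2 at a raw count minimum of 200. Those that met both measures of the no-feature share were 3 with TMM-scaled CPM, 2 at a limit of 0.3 and 2 with all 24 libraries in place of 1, and between 1 and 2 with 1 library left out. Among the named genes the direction turned with all 24 libraries for Olfr239 in WTEE against WTSH (-0.34) and in KDSH against WTSH (-0.49), and for Olfr1507 in KDSH against WTSH with the marker sum (0.10). Without 1 library Olfr1507 ranged from -3.65 to 1.26 in KDSH against WTSH and from -5.74 to 0.31 in the interaction, and the turn came with WTSH sample 19. The differences in the no-feature share ranged without 1 library from -0.68 to 1.38 percentage points in WTEE against WTSH and from -0.79 to 1.28 in KDSH against WTSH, changed sign in both, and kept their sign from -2.44 to -1.81 in KDEE against KDSH and from 1.74 to 2.45 in WTEE against KDEE. The causes were not tested. Asking for 10 or more counts in each library left 5 receptor genes to test. Depth limits the genes whose median lies under 0.109 CPM, the 3-count floor of the shallowest library used, and samples 4 and 7 for genes under 0.19 CPM.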
